A study of Mus musculus with 16 samples.

Results

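Sialic acids are acidic sugars that cap the outer ends of glycans on secreted proteins, membrane proteins and gangliosides. They are made in the cytosol from UDP-GlcNAc, activated to CMP-sialic acid in the nucleus, carried into the Golgi and attached by sialyltransferases that differ in linkage and acceptor. In the mammary gland they also end up on milk glycoproteins and milk oligosaccharides, and St6gal1 is known as a gene of the lactating gland. The 10 genes examined cover synthesis (Gne, Nans), activation (Cmas), Golgi transport (Slc35a1), hydroxylation (Cmah) and transfer (St6gal1, St3gal1, St3gal4, St3gal5, St3gal6). They were matched by symbol, each to 1 of the 55487 gene identifiers in the count table, and all 10 passed the filter on low counts that left 24252 genes. Cmah and St6gal1 were chosen by their measured levels, since these differ by genotype, so their values are given as a description without a test. The other 8 genes were taken for their place in the pathway, with earlier results of these data known, and were tested.

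RNA was sequenced from 16 samples of mouse mammary organoids of 4 genotypes. The WT organoids (n = 3) came from normal breast. Breast tumors gave the 4 PIK3CA mutant samples, the 4 HER2 mutant samples and the 5 samples of the double mutant, which carries both alleles. The series title names the alleles HER2 V777L and PIK3CA H1047R, both of which are activating mutations of breast cancer. All organoids grew in the same medium with B27, 125 µM N-acetyl-cysteine, 10% Rspo1-Noggin conditioned medium and epidermal growth factor at 50 ng/ml. In each comparison with WT, genotype and tissue of origin changed together and cannot be told apart. The sources used here give no promoter or Cre line for the alleles and do not say whether replicates came from separate animals, so p-values measure the spread between these samples, which may be technical.

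Total counts ranged from 45545182 to 64168308 per sample, and 3 counts corresponded to 0.0477 to 0.0668 CPM (counts scaled to library size with TMM factors). Erbb2, the mouse gene of HER2, was at 145 to 188 CPM in the samples without mutant HER2, at 2696 to 4632 CPM in HER2 mutants and at 1499 to 2751 CPM in double mutants. Luminal markers were present in every sample at a summed 2201 to 5146 CPM. Summed basal markers were at 465 to 991 CPM in WT, 479 to 1295 in PIK3CA mutants and 479 to 959 in double mutants. In HER2 mutants they were at 866 CPM in replicate 1 and at 241, 240 and 369 CPM in replicates 2, 3 and 4. Summed hormone-sensing luminal markers were at 204 to 259 CPM in WT, 176 to 240 in PIK3CA, 117 to 143 in HER2 and 103 to 299 in double mutants. The part of these markers in the results below was not tested. Of 11 macrophage markers, all were found, and their sum was 1091 to 3906 CPM in WT, 610 to 773 CPM in PIK3CA mutants, 272 to 454 CPM in HER2 mutants and 239.5 to 425 CPM in double mutants. In all mutant samples but HER2 mutant replicate 1, most of this sum was Cd14. Cd14 averaged 539.8 CPM in WT, 650.2 CPM in PIK3CA mutants, 278 CPM in HER2 mutants and 328 CPM in double mutants. In HER2 mutant replicate 1 the sum was 340 CPM, with Cd14 at 123 CPM and Lyz2 at 142.5 CPM. The defining marker Adgre1 averaged 25.4 CPM in WT, 0.178 CPM in PIK3CA mutants, 1.72 CPM in HER2 mutants and 0.0188 CPM in double mutants, with no count in 1 HER2 and 2 double mutant samples. Summed fibroblast markers were at 325 to 1899 CPM in WT, at 65.1 to 471 CPM in PIK3CA mutants, at 34.0 to 624 CPM in HER2 mutants and at 26.2 to 58.0 CPM in double mutants. HER2 mutant samples resembled each other least, with correlations across genes of 0.925 to 0.959 against 0.973 to 0.979 between WT samples.

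Cmah encodes the hydroxylase that turns CMP-Neu5Ac into CMP-Neu5Gc, a sialic acid that mice make and humans do not. The gene (ENSMUSG00000016756) lies on chromosome 13 at 24327404 to 24477377 on the plus strand of GRCm38. Its level was 0.0699, 0.320 and 0.484 CPM in the WT samples, which are 4, 16 and 29 counts. PIK3CA mutants had 5.64, 21.9, 4.45 and 5.61 CPM. HER2 mutants had 14.98, 0.193, 0.801 and 1.68 CPM. Double mutants had 11.4, 14.5, 28.1, 20.04 and 30.3 CPM. Every PIK3CA and double mutant sample therefore lay above every WT sample, whereas the HER2 mutants ran from the WT range to the PIK3CA mutant range.

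In the order of its means, Cmah was lowest in WT (0.291 ± 0.208 CPM, SD, n = 3), then in HER2 mutants (4.41 ± 7.07, SD, n = 4), PIK3CA mutants (9.39 ± 8.33, SD, n = 4) and double mutants (20.9 ± 8.23, SD, n = 5). The HER2 mutant mean rested on replicate 1. Each genotype overlapped in its samples with its neighbours in this order. The fitted log2 fold change of Cmah was 4.996 in PIK3CA mutants against WT (SE 1.25) and 6.15 in double mutants against WT (SE 1.30). Against WT it was 3.91 in HER2 mutants (SE 1.2) and 1.60 without HER2 mutant replicate 1. Between double and HER2 mutants Cmah differed by 2.24 (SE 0.914), which became 4.55 without that replicate. Between HER2 and PIK3CA mutants it differed by -1.09 (SE 0.912), and by -3.40 without that replicate.

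RefSeq lists 2 start sites for Cmah in GRCm38.p6, and the 250 bases before each are shown because this gene had the widest range of the 10. Capitals mark CCAAT and GGGCGG on either strand.
Cmah start 1, chr13:24327154-24327403, plus strand: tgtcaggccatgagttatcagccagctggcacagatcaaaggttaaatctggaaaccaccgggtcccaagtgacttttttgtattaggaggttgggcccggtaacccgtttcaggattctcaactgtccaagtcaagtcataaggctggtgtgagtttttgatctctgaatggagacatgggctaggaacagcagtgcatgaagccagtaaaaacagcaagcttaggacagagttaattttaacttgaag
Cmah start 2, chr13:24414872-24415121, plus strand: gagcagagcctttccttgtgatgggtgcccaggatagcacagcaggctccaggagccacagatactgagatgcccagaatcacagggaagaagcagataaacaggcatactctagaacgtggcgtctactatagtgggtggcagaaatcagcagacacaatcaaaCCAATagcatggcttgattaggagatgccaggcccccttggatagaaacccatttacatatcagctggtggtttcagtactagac
The first window held neither motif, and the second held 1 CCAAT box. Gene counts do not show which of these starts was used.

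**Figure D1:**
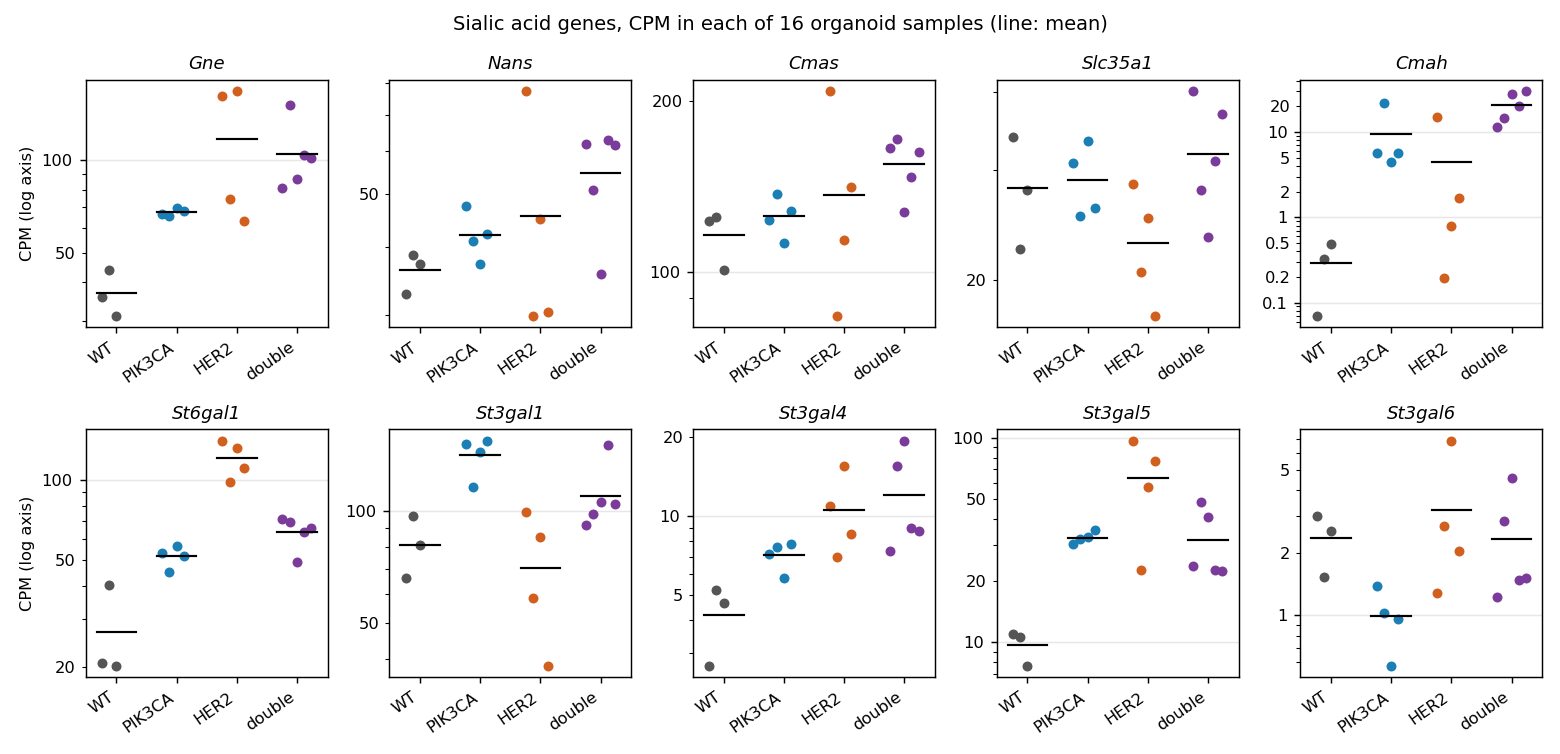
CPM of the 10 sialic acid genes in each of the 16 samples, on a log axis, with 1 point per sample and a line at the mean of each genotype. Cmah spans 0.0699 to 30.3 CPM, and all 4 HER2 mutant samples of St6gal1, at 98.4 to 140.0 CPM, lie above every other sample of that gene.

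St6gal1 encodes the Golgi enzyme that adds α2,6-linked sialic acid to galactose on N-glycans. The gene (ENSMUSG00000022885) lies on chromosome 16 at 23224740 to 23360350 on the plus strand. WT samples had 20.6, 40.2 and 20.2 CPM, and PIK3CA mutants had 53.1, 45.3, 56.4 and 51.8 CPM. HER2 mutants had 140.0, 98.4, 131 and 111 CPM, and double mutants had 71.4, 69.3, 49.0, 63.6 and 65.8 CPM. WT samples were the lowest and HER2 mutant samples the highest without overlap, while PIK3CA and double mutants overlapped between them. The spread within HER2 mutants was far smaller for St6gal1 than for Cmah, with a coefficient of variation of 15.8% against 160%.

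St6gal1 averaged 27.0 ± 11.5 CPM in the 3 WT samples (SD), 51.7 ± 4.66 CPM in the 4 PIK3CA mutants (SD), 63.8 ± 8.79 in double mutants (SD, n = 5) and 120.1 ± 19.0 in HER2 mutants (SD, n = 4). Against WT, the fitted log2 fold change was 0.94 in PIK3CA mutants (SE 0.221), 2.15 in HER2 mutants (SE 0.232) and 1.24 in double mutants (SE 0.217). The double mutant was lower than the HER2 mutant by -0.91 on the log2 scale (SE 0.189) and differed from the PIK3CA mutant by 0.30 (SE 0.190). The interaction, the double mutant's log2 change minus both single-mutant changes, was -1.85 (SE 0.292), an estimate that ranged from -2.26 to -1.68 when any 1 sample was left out. The 10 milk genes had sums of 7043 to 52790 CPM in HER2 mutants against 3521 to 5786 in WT, 9125 to 15060 in PIK3CA mutants and 7370 to 23090 in double mutants. Csn1s1, Csn2, Csn1s2a, Csn1s2b, Wap, Glycam1, Btn1a1 and Xdh had their highest means in HER2 mutants. Only Csn3, with its highest mean in double mutants, and Lalba, with its highest in WT, differed from these. In HER2 mutants the milk sum was lowest in replicate 2 and highest in replicate 3, and St6gal1 was lowest in replicate 2 and highest in replicate 1. The part of milk genes in the St6gal1 levels was not tested.

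Mouse St6gal1 is transcribed from several first exons, so the 250 bases before each of its 3 RefSeq starts in GRCm38.p6 are shown, with the same motifs in capitals.
St6gal1 start 1, chr16:23224490-23224739, plus strand: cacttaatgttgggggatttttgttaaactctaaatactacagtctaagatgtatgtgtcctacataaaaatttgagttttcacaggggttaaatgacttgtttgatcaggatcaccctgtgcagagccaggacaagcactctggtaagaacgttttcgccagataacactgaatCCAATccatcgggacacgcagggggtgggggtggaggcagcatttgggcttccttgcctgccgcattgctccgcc
St6gal1 start 2, chr16:23225771-23226020, plus strand: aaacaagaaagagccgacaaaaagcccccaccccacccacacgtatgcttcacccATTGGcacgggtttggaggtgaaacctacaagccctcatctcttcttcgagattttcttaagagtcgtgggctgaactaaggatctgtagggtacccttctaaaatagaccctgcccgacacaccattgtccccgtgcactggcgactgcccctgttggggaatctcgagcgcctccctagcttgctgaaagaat
St6gal1 start 3, chr16:23290220-23290469, plus strand: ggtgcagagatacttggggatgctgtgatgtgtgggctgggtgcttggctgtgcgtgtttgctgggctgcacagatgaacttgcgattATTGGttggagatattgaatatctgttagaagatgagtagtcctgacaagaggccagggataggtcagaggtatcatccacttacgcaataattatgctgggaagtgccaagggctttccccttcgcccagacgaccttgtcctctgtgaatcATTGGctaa
All 3 windows held CCAAT, the third in 2 places, and none held GGGCGG. For St3gal5, which moved most among the tested members, the single listed window is GC-rich and held both motifs.
St3gal5 start 1, chr6:72097358-72097607, plus strand: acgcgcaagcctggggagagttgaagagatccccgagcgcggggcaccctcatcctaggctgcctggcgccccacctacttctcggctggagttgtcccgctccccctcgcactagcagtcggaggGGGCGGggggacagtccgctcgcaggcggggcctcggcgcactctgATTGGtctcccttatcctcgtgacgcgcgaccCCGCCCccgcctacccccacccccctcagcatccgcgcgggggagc
Windows were listed for 8 of the 10 genes, 13 windows in all. CCAAT was in 6 of the 13 (33.8% of all 32851 RefSeq windows of this length) and GGGCGG in 4 (32.7% of all windows). The STAT5-type sequence TTCNNNGAA, searched on both strands like the others, was in 0 of the 13 (7.02% of all windows), which says only that these letters are not in these windows.

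Gne encodes the first, feedback-inhibited enzyme of the pathway, which converts UDP-GlcNAc to N-acetylmannosamine and phosphorylates it. Gne (ENSMUSG00000028479) lies on chromosome 4 at 44034075 to 44084177 on the minus strand. WT samples had 35.8, 43.9 and 31.2 CPM, and PIK3CA mutants had 66.7, 65.8, 69.5 and 68.2 CPM. HER2 mutants had 161, 74.6, 167 and 63.1 CPM, and double mutants had 80.9, 150.6, 86.3, 103 and 101 CPM. No mutant sample of any genotype reached down to the WT range. HER2 mutants fell into a high pair (replicates 1 and 3) and a low pair (replicates 2 and 4) near the PIK3CA mutant level.

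Gne rose in HER2 mutants against WT by 1.65 on the log2 scale (SE 0.313, adjusted edgeR p 0.00468). The double mutants exceeded WT by 1.498 (SE 0.302, adjusted edgeR p 0.00444). In PIK3CA mutants the value was 0.87 (SE 0.304, adjusted edgeR p 0.134), which did not pass although all samples were separate from WT. The call in double mutants held in each of 8 fits without a replicate and in all 7 other alternatives. The call in HER2 mutants was lost only in the fit of those 7 samples alone. Between double and PIK3CA mutants Gne was at 0.63 (SE 0.264, adjusted edgeR p 0.338) with no overlap of samples, and between double and HER2 mutants at -0.16 (SE 0.261, adjusted edgeR p 0.825).

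The 3 members between Gne and the Golgi were not called in any pair of genotypes. Nans makes the phosphorylated sialic acid, Cmas activates sialic acid with CMP after the phosphate is removed, and Slc35a1 carries CMP-sialic acid into the Golgi. Cmas was at 123, 125 and 101 CPM in WT, 113 to 137 CPM in PIK3CA mutants, 83.9 to 208 CPM in HER2 mutants and 128 to 172 CPM in double mutants. Per kilobase of exon it had the highest mean of the 10 genes in every genotype, from 24.7 CPM per kb in WT to 32.9 in double mutants. Nans was at 32.9 to 38.7 CPM in WT, 37.2 to 47.5 in PIK3CA mutants, 29.9 to 77.4 in HER2 mutants and 35.8 to 63.0 in double mutants. Slc35a1 was at 22.5 to 33.9 CPM in WT, 25.3 to 33.4 in PIK3CA mutants, 17.5 to 28.5 in HER2 mutants and 23.4 to 40.1 in double mutants.

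None of these 3 genes passed the edgeR test in any of the 6 pairs of genotypes, and their log2 fold changes lay between -0.33 and 0.59. The normal-approximation interval of the double mutant against WT, from the estimate and its SE, was 0.06 to 1.12 for Nans, -0.01 to 0.83 for Cmas and -0.21 to 0.58 for Slc35a1. A rise of Nans or Cmas by over 1.5-fold is thus within these intervals. Nans had an unadjusted edgeR p under 0.05 in this comparison, a threshold at which all genes were not counted. For Cmas all double mutant samples lay above all WT samples, beside 23% of all genes without overlap. Replicate 1 was the highest HER2 mutant sample for all 3 genes. Nans overlaps Trim14 on the opposite strand, and the strandedness of the counting was not given in the sources used here.

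St3gal5 encodes GM3 synthase, which adds sialic acid to lactosylceramide and so makes the first ganglioside. It lies on chromosome 6 at 72097592 to 72154571 on the plus strand (ENSMUSG00000056091). WT samples had 10.9, 10.6 and 7.69 CPM, and PIK3CA mutants had 30.1, 32.0, 32.6 and 35.3 CPM. HER2 mutants had 96.8, 22.5, 57.5 and 77.0 CPM, and double mutants had 23.6, 48.7, 41.2, 22.5 and 22.2 CPM. All mutant samples lay above all WT samples, and 3 of the 4 HER2 mutants lay above every other sample. St3gal5 was the only 1 of the 8 tested genes that passed in all 3 comparisons with WT, which share the 3 WT samples.

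St3gal5 rose against WT by 1.74 on the log2 scale in PIK3CA mutants (SE 0.396, adjusted edgeR p 0.0181). In HER2 mutants the rise was 2.70 (SE 0.414, adjusted edgeR p 0.0015). For double mutants it was 1.70 (SE 0.385, adjusted edgeR p 0.00912). These correspond to 3.33-fold, 6.51-fold and 3.24-fold. The HER2 mutant call held in all 7 fits without a replicate, whereas the PIK3CA mutant call was lost without WT replicate 1 or 3 and the double mutant call without WT replicate 3. Adding mutant HER2 to mutant PIK3CA changed St3gal5 by -0.04 (SE 0.329, adjusted edgeR p 0.978). The difference between the HER2 change in WT and in PIK3CA mutant organoids, the interaction, was -2.74 (SE 0.513, adjusted edgeR p 0.0191), and the call was lost without WT replicate 3. Over all genes 1.06% passed this interaction test, 0.544% in the lower direction, which includes the WT samples and so the normal tissue source.

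**Figure D2:**
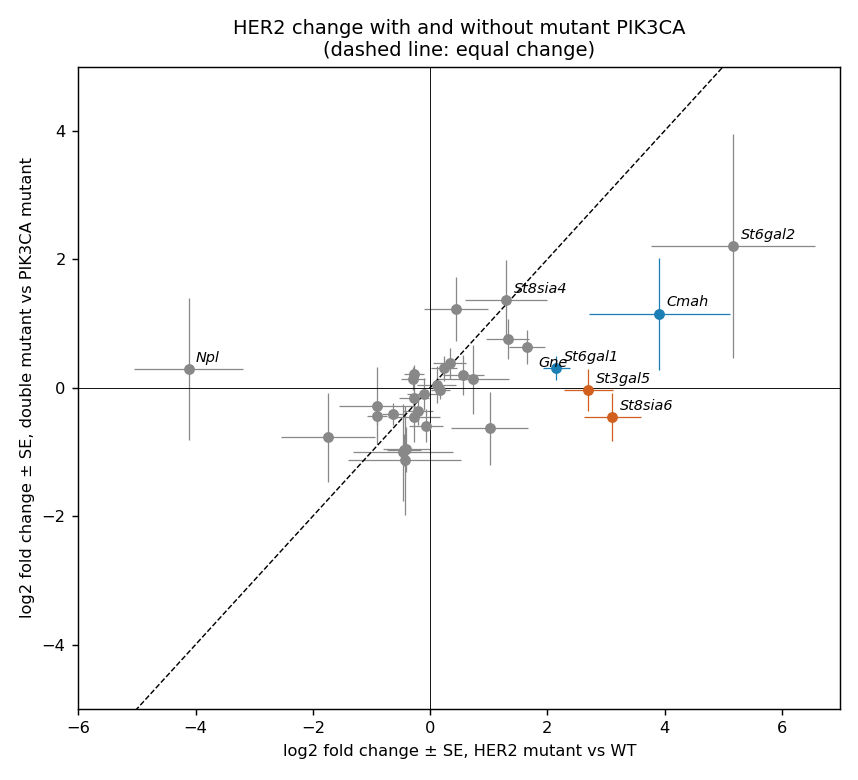
Log2 fold change with SE of each tested sialic acid pathway gene and of Cmah and St6gal1 for HER2 mutant against WT (horizontal) and double against PIK3CA mutant (vertical), 2 contrasts that share no sample. St3gal5 (2.70 and -0.04) and St8sia6 (3.11 and -0.45), in orange, lie far below the dashed line of equal change, and St6gal1 and Cmah, in blue, were not tested.

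St3gal4 encodes an enzyme that puts α2,3-linked sialic acid on N-acetyllactosamine and helps to build selectin ligands. WT samples had 2.69, 5.22 and 4.67 CPM, PIK3CA mutants 7.17, 7.62, 5.78 and 7.79 CPM, and HER2 mutants 10.9, 7.0, 15.5 and 8.54 CPM. Double mutants had 7.36, 15.5, 19.3, 8.96 and 8.79 CPM. All mutant samples again lay above all WT samples. St3gal4 rose by 1.32 on the log2 scale in HER2 mutants (SE 0.361, adjusted edgeR p 0.0305). Its rise was 1.51 for double mutants (SE 0.353, adjusted edgeR p 0.0109). In PIK3CA mutants it was at 0.76 (SE 0.355, adjusted edgeR p 0.293). The HER2 mutant call was lost without WT replicate 1, WT replicate 3 or HER2 mutant replicate 3 and in a fit of those genotypes alone, and the double mutant call was lost without WT replicate 1.

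St3gal1, which caps core 1 O-glycans with α2,3-linked sialic acid, followed another order. PIK3CA mutants had 151, 116, 144 and 154 CPM and WT samples 66.0, 96.9 and 81.0 CPM. HER2 mutants had 99.2, 58.6, 85.0 and 38.5 CPM, and double mutants had 91.9, 98.3, 106, 150.0 and 104 CPM. PIK3CA mutants were thus the highest genotype and did not overlap with WT or with HER2 mutants. St3gal1 was lower in HER2 than in PIK3CA mutants by -1.01 on the log2 scale (SE 0.242, adjusted edgeR p 0.029). That call was lost without PIK3CA mutant replicate 1, 3 or 4, without HER2 mutant replicate 2 and in a fit of those genotypes alone. Against WT, the PIK3CA mutant value was 0.80 (SE 0.264, adjusted edgeR p 0.111), the HER2 mutant value -0.21 (SE 0.258, adjusted edgeR p 0.656) and the double mutant value 0.44 (SE 0.251, adjusted edgeR p 0.283).

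St3gal6, a further α2,3 sialyltransferase of N-acetyllactosamine, was among the lowest of the 10 genes at 0.576 to 6.88 CPM over all samples. PIK3CA mutants had 1.38, 1.03, 0.576 and 0.965 CPM, all below the WT samples at 3.01, 1.52 and 2.55 CPM. HER2 mutants ranged from 1.28 to 6.88 CPM and double mutants from 1.22 to 4.53 CPM. No comparison passed the edgeR test, and the nearest was HER2 against PIK3CA mutants at 1.69 (SE 0.522, adjusted edgeR p 0.0777). St3gal6 overlaps Dcbld2 on the opposite strand.

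**Figure D3:**
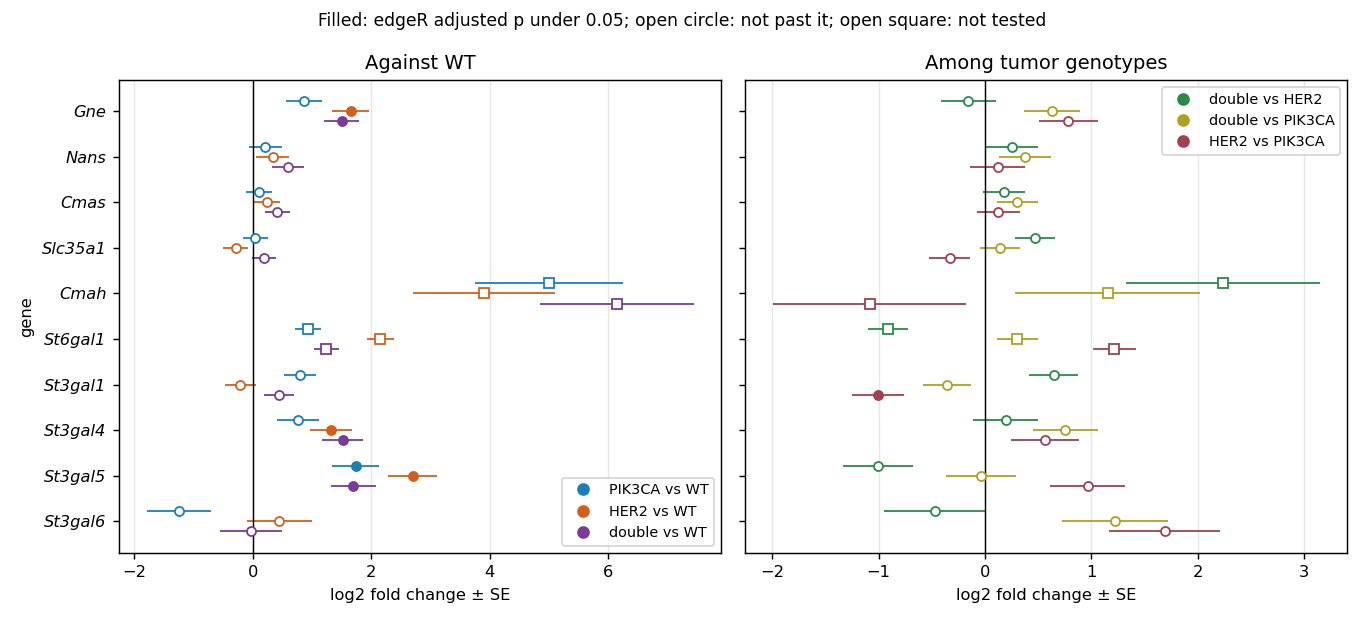
Log2 fold change with SE of the 10 genes against WT (left) and among the tumor genotypes (right). Filled circles passed an edgeR adjusted p of 0.05, open circles did not, and the squares of Cmah and St6gal1 were not tested; Gne, St3gal4 and St3gal5 are filled against WT, and St3gal1 alone is filled on the right.

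Counted over the 8 tested members, 1 passed in PIK3CA mutants against WT (St3gal5, higher), where 4.52% of all genes passed. In HER2 mutants 3 rose (Gne, St3gal4, St3gal5), where 10.4% of all genes passed and 4.75% rose. In double mutants the same 3 rose, where 11.8% of all genes passed and 5.03% rose. The median log2 fold change of the 8 was 0.49 in PIK3CA, 0.39 in HER2 and 0.51 in double mutants, beside -0.03, 0.03 and 0.01 over all genes tested. In PIK3CA mutants 5 of the 8 had no overlap with WT, beside 29.5% of all genes. In HER2 mutants 3 of 8 had none, beside 22.2%, and in double mutants 4 of 8, beside 23%. These comparisons share the WT samples, and the 8 genes were chosen with earlier results of these data known.

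Of the 8 tested members, 0 passed with edgeR between double and HER2 mutants, 3 had an unadjusted p under 0.05, and DESeq2 and limma each called 0, where 2.5% of all genes passed. None of the 8 separated these genotypes, beside 4.59% of all genes. Between double and PIK3CA mutants edgeR called 0 as well, where 0.672% of all genes passed, 0.309% higher and 0.363% lower. There 3 had an unadjusted p under 0.05, and DESeq2 and limma each called 0. Gne alone had no overlap there, beside 7.92% of all genes. The share of all genes with an unadjusted p under 0.05 was not counted in either comparison, so neither count of 3 can be set against it. Between HER2 and PIK3CA mutants 1 passed (St3gal1, lower), where 4.41% of all genes did, 2.21% higher and 2.2% lower, and it alone had no overlap, beside 12.5%. For St3gal5 the double mutant was at -1.004 against the HER2 mutant (SE 0.328, adjusted edgeR p 0.11), an estimate that did not pass.

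The rest of the pathway was read from a list of 34 genes of sialic acid synthesis, breakdown and transfer without Cmah and St6gal1, of which the low-count filter left 30 (Neu4, St6galnac1, St8sia3 and St8sia5 were dropped). In PIK3CA mutants against WT, 2 rose and 2 fell, beside 1.49% and 3.03% of all genes. In HER2 mutants 5 rose and 2 fell, beside 4.75% and 5.63%, and in double mutants 4 rose and 4 fell, beside 5.03% and 6.72%. Double against HER2 mutants gave 2 calls, both lower, beside 1.47% of all genes. HER2 against PIK3CA mutants gave 3, of which 2 were higher and 1 lower, beside 2.21% and 2.2% of all genes. St6gal2 is among the calls of HER2 mutants against WT, double against HER2 mutants and HER2 against PIK3CA mutants. It passed the low-count filter through the HER2 mutants alone. Between double and PIK3CA mutants edgeR called 0, where 0.672% of all genes passed, with 1 called by DESeq2 and 0 by limma. There 9 had an unadjusted p under 0.05, a threshold at which all genes were not counted. The median of the 30 against WT was 0.05, -0.08 and 0.02 in PIK3CA, HER2 and double mutants, near that of all genes.

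St8sia6, which adds α2,8-linked sialic acid mainly to O-glycans, changed most against WT among the tested pathway genes that had a mean of at least 1 on the log2 CPM scale. Cmah, which was not tested, had larger estimates. WT samples had 6.26, 5.56 and 2.84 CPM, PIK3CA mutants 53.1 to 97.0 CPM, HER2 mutants 14.5 to 66.3 CPM and double mutants 23.4 to 67.2 CPM. The PIK3CA mutants exceeded WT by 3.89 on the log2 scale (SE 0.502, adjusted edgeR p 0.000824), the HER2 mutants by 3.11 (SE 0.483, adjusted edgeR p 0.00159) and the double mutants by 3.43 (SE 0.483, adjusted edgeR p 0.000408). Each of these calls held in every fit without a replicate and in all 7 other alternatives. Its interaction was -3.56 (SE 0.595, adjusted edgeR p 0.0113), lost without WT replicate 3. St8sia4, a polysialyltransferase, was at 0.795 to 1.36 CPM in PIK3CA mutants and 1.10 to 20.2 CPM in HER2 mutants, a difference of 3.48 (SE 0.696, adjusted edgeR p 0.0117) although the samples overlapped, and this call was lost in a fit of those genotypes alone.

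The calls among genes of sialic acid breakdown and removal were all in the lower direction. Ctsa, whose product protects the lysosomal sialidase Neu1, was at 189 to 275 CPM in WT, 139 to 146 in PIK3CA mutants, 85.5 to 135 in HER2 mutants and 96.2 to 137 in double mutants. The PIK3CA mutant log2 fold change of Ctsa was -0.65 (SE 0.173, adjusted edgeR p 0.042), that of HER2 mutants -0.90 (SE 0.173, adjusted edgeR p 0.00493) and that of double mutants -1.08 (SE 0.163, adjusted edgeR p 0.000628). The PIK3CA mutant call did not pass in 6 of 7 leave-one-out fits, all but the one without WT replicate 2, nor with no low-count filter or with limma, and the HER2 mutant call was lost in a fit of those genotypes alone. Siae, an esterase that removes O-acetyl groups from sialic acid, fell in double mutants (-0.69, SE 0.189, adjusted edgeR p 0.0273), a call lost in 5 of 8 fits, those without WT replicate 1, 2 or 3 or double mutant replicate 2 or 3, and with no low-count filter. Renbp, an N-acetylglucosamine epimerase, fell in double mutants by 2.05 on the log2 scale against WT (SE 0.375, adjusted edgeR p 0.0023) and by 1.65 against HER2 mutants (SE 0.354, adjusted edgeR p 0.0246). The latter was lost without HER2 mutant replicate 4, double mutant replicate 1 or 5 and in a fit of those genotypes alone. Npl, the sialic acid lyase, fell in all 3 comparisons with WT, and St6gal2 was called higher in HER2 mutants, both at a mean below 1 on the log2 CPM scale. St6gal2 had 1 to 138 counts in HER2 mutants and at most 4 in any other sample. It passed the low-count filter through the HER2 mutants alone, so it could only be called higher there. The HER2 mutant call of Npl was lost without WT replicate 3. That of St6gal2 was lost without WT replicate 1, 2 or 3 and in a fit of those genotypes alone. St6gal2 was tested in only 4 of the 7 fits without a replicate.

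Upstream, Uap1, which makes UDP-GlcNAc, rose in HER2 mutants (0.93, SE 0.2, adjusted edgeR p 0.00974) and also rose in double mutants (1.03, SE 0.194, adjusted edgeR p 0.00284). The former was lost without WT replicate 3 and in a fit of those genotypes alone. Uap1 had 36.9 to 41.6 CPM in WT, 51.4 to 65.0 in PIK3CA mutants, 60.5 to 91.0 in HER2 mutants and 66.4 to 115 in double mutants, so that WT overlapped with no mutant genotype. Gfpt1, the entry enzyme of the hexosamine pathway, was called in double mutants (0.67, SE 0.205, adjusted edgeR p 0.0437), but in only 1 of 8 fits without a replicate, the one without double mutant replicate 3, and not without the low-count filter. Among the 9 genes for acceptor glycans, only lower calls were made against WT, for B4galt5 and B4galnt1, while 2 to 4 of the 9 had positive estimates in each of these comparisons. B4galt5, a lactosylceramide synthase that supplies the substrate of St3gal5, fell in PIK3CA mutants (-2.55, SE 0.598, adjusted edgeR p 0.0212) and double mutants (-3.53, SE 0.571, adjusted edgeR p 0.000978). Its WT samples had 17.3, 14.8 and 37.2 CPM and its double mutant samples 1.45 to 2.66 CPM. The PIK3CA mutant call was lost without WT replicate 3 or PIK3CA mutant replicate 1, 2 or 3. B4galt5 was also lower in double than in HER2 mutants (-2.67, SE 0.536, adjusted edgeR p 0.0178), a call lost without double mutant replicate 1 or 4 and in a fit of those genotypes alone. B4galt6, also a lactosylceramide synthase, was called in no comparison. It averaged 92.9 CPM in WT, 50.8 in PIK3CA mutants, 85.0 in HER2 mutants and 50.2 in double mutants. B4galnt1, which extends GM3 and GD3 to GM2 and GD2, fell in double mutants (-0.85, SE 0.145, adjusted edgeR p 0.00138). C1galt1, which makes the core 1 acceptor of St3gal1, was lower in double than in HER2 mutants (-0.45, SE 0.110, adjusted edgeR p 0.0453), and it did not pass in 7 of 9 leave-one-out fits, all but those without HER2 mutant replicate 3 or 4, nor with no low-count filter, with limma or in a fit of those genotypes alone.

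Of 9 sialic acid binding lectins, 7 were tested, and Siglec1, Cd22 and Cd33 fell in all 3 comparisons with WT, where 3.03%, 5.63% and 6.72% of all genes fell in PIK3CA, HER2 and double mutants. All 3 are receptors of leukocytes and had a mean below 1 on the log2 CPM scale. Cd22 had 42 to 407 counts in WT, 0 to 4 in PIK3CA mutants, 1 to 35 in HER2 mutants and 0 to 2 in double mutants. It passed the low-count filter through WT alone, so against WT it could only be called lower. Siglec1, the sialoadhesin of macrophages, was at 126, 40.8 and 260 CPM in WT, at 0.207 to 0.996 CPM in PIK3CA mutants, at 0.287 to 29.1 CPM in HER2 mutants and at 0.0886 to 0.824 CPM in double mutants. These values were added after they had been seen, because Siglec1 was highest in the samples with the most Adgre1. In HER2 mutants the Siglec1 call was lost without WT replicate 1 or 3 or HER2 mutant replicate 2 or 3 and in a fit of those genotypes alone. The HER2 mutant call of Cd22 was lost without WT replicate 3 and in that fit, and that of Cd33 without WT replicate 3 or HER2 mutant replicate 3 or 4, in that fit and with limma. Fewer cells with these transcripts, less of the RNA per cell and the normal tissue source of WT cannot be told apart in these bulk samples. Adgre1 and the sum of macrophage markers given above moved with Ctsa, Renbp, Npl, Siglec1, Cd22 and Cd33 in the comparisons with WT. The part of these markers in those results was not tested. Of the 7 tested lectins, 1 had a positive estimate against WT in HER2 mutants and 1 in double mutants. Gne, St3gal4, St3gal5 and St8sia6 were lowest in the WT samples, where Adgre1 and that sum were highest. Fibroblast markers also reached their highest sum, 1899 CPM, in WT, though WT overlapped with PIK3CA and HER2 mutants in that sum. The part of macrophages and fibroblasts in the levels of Gne, St3gal4, St3gal5 and St8sia6 was not tested.

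**Figure D4:**
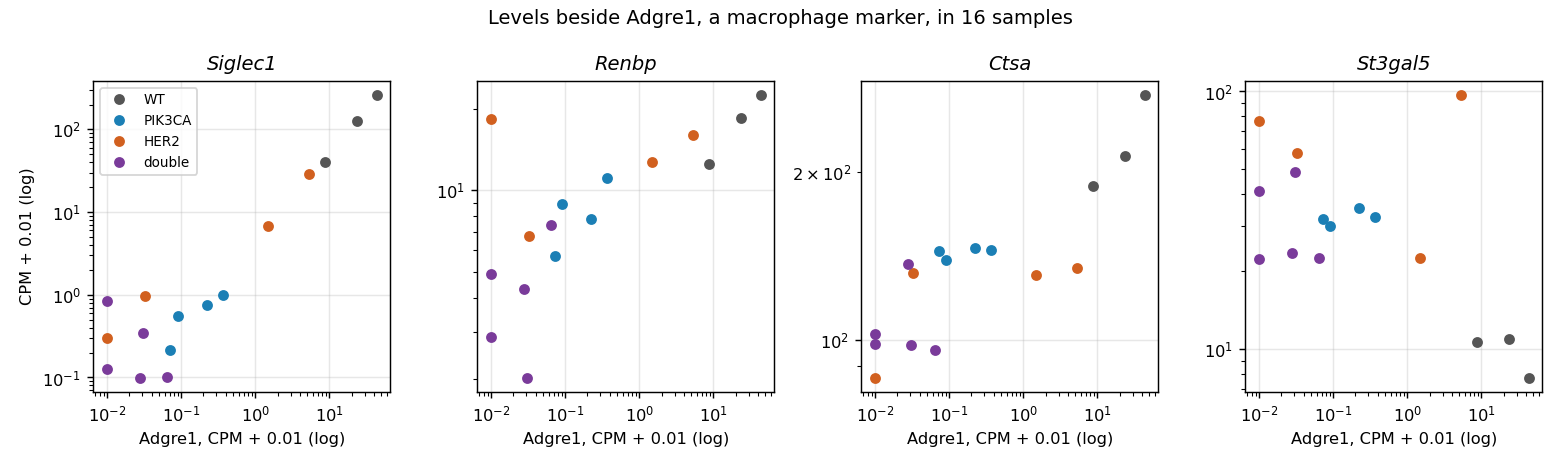
CPM of Siglec1, Renbp, Ctsa and St3gal5 against CPM of the macrophage marker Adgre1 in the 16 samples, both on log axes after adding 0.01. The 3 WT samples are at the right, with 40.8 to 260 CPM of Siglec1 and 7.69 to 10.9 CPM of St3gal5.

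Levels were compared between genes per kilobase of exon, from the summed exon length in GENCODE M21. In WT the order was Cmas (24.7 ± 2.85 CPM per kb, SD, n = 3), Slc35a1 (12.2 ± 2.50), St3gal1 (11.9 ± 2.26), Nans (7.92 ± 0.662), Gne (5.81 ± 1.02), St6gal1 (5.49 ± 2.33) and St3gal5 (3.72 ± 0.683), with St3gal4, St3gal6 and Cmah below. Slc35a1 and St3gal1, and Gne and St6gal1, were within 1 SD of each other. In HER2 mutants St6gal1 (24.4 ± 3.85 CPM per kb, SD, n = 4) and St3gal5 (24.2 ± 12.1) stood next to Cmas (29.0 ± 11.3), within its SD. In PIK3CA mutants St3gal1 (20.6 ± 2.57 CPM per kb, SD, n = 4) was second to Cmas (26.6 ± 2.16). Double mutants had Gne (16.4 ± 4.33 CPM per kb, SD, n = 5) and St3gal1 (16.1 ± 3.36) level behind Cmas (32.9 ± 3.73).

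Across the 16 samples the members did not follow 1 common course. The highest Pearson r of log2 CPM among pairs of members was that of Gne with St3gal4 (0.822), then St6gal1 with St3gal5 (0.82) and Gne with St6gal1 (0.813). Within genotypes, as deviations from the genotype means, these were 0.501, 0.239 and 0.543. St3gal1 and St3gal6 had the lowest r, at -0.481, and -0.0572 within genotypes. These values describe samples that share genotype and library, and carry no test.

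The genes most like Cmah over the 16 samples, among 11745 named genes with a mean log2 CPM of at least 1, were Pi15 (Pearson r 0.914), Csgalnact2 (0.907), Cdca8 (0.893), Galnt18 (0.885) and Fancb (0.88). Within genotypes their r with Cmah was 0.772, 0.843, 0.82, 0.7 and 0.696. Those most like St6gal1 were Rhobtb3 (0.929), Pcsk6 (0.918), Col9a1 (0.916), Cald1 (0.913) and Pglyrp1 (0.911), with 0.65, 0.555, 0.81, 0.231 and 0.68 within genotypes. Cald1 was thus alike mainly in its genotype means.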

How the data were processed

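Gene counts of 16 mouse mammary organoid samples were used as deposited, 1 column per sample. Per the submitters' processing notes, bcl2fastq 2.20, STAR 2.0.4b, Subread featureCounts 1.4.5 and DESeq2 1.33.5 were used with the mouse build mm10. Strandedness and annotation were not given in the sources used here. The authors also deposited a normalized signal table, which equals the counts divided by a median-of-ratios factor per sample (largest relative difference 5.49e-10) and was used only for the limma alternative, as log2 of the value plus 1. Of 55774 entries, 287 repeated an identifier with identical values and were dropped.

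Counts of all 4 genotypes entered 1 edgeR 4.0.16 quasi-likelihood fit (R 4.3.3) with genotype as the only term, after filterByExpr, which left 24252 genes, and with TMM factors. The 6 pairs of genotypes and the interaction were tested two-sided, with Benjamini-Hochberg adjustment over all genes and a threshold of 0.05. SE was the log2 fold change over the square root of F. Alternatives were DESeq2 1.42.0, limma 3.58.1, other factors, no low-count filter, a replicate block, a fit of the compared genotypes alone, and each sample left out. On simulated HER2 against WT counts of 23335 genes, 43% of genes changed by 1 on the log2 scale were recovered. Of those changed by 2, 94.7% were recovered. These values hold for the simulated counts, and recovery at the spread of the measured samples was not tested. In HER2 mutants the measured coefficient of variation ran from 15.8% for St6gal1 to 160% for Cmah over the 10 members.

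All members, the mutated gene Erbb2 and marker genes were given values, and other genes that passed a test were given values where their mean log2 CPM (prior count 2) was at least 1. Exceptions were Siglec1, Cd22 and St6gal2, with lower means, and B4galt6, St6galnac2 and St6galnac4, which passed no test. The members, gene lists and markers were chosen with earlier results of these data known. The labels name no batch. Promoter windows came from RefSeq (GRCm38.p6), gene positions and exon lengths from GENCODE M21 (GRCm38).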

Additional observations from a re-analysis of the deposited data

Results flagged for a closer look

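In PIK3CA mutants, Cmah was at 21.9 CPM in replicate 2, against 4.45 to 5.64 CPM in the others. In HER2 mutants, Cmah was at 14.98 CPM in replicate 1, against 0.193 to 1.68 CPM in the others. In double mutants, St3gal1 was at 150.0 CPM in replicate 4, against 91.9 to 106 CPM in the others. These 3 samples were flagged for a gap to the nearest sample that exceeded the critical value of Dixon's test, among 30 groups of values tested, and chance flags about 1 in 20.

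The change with mutant HER2 differed between WT and PIK3CA mutant organoids by edgeR's interaction test for St3gal5, at -2.74 on the log2 scale (SE 0.513, adjusted p 0.0191), and for St8sia6, at -3.56 (SE 0.595, adjusted p 0.0113). All WT samples came from normal tissue, so in this test genotype and tissue of origin cannot be told apart.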

How the results depend on the processing

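Over 175 gene and comparison values of 25 genes, 0 of 2779 alternative values reversed (a sign change within 1 SE of 0 was not counted), and 18 of 45 calls held under all alternatives. Other scaling factors moved the median of all genes by under 0.1 on the log2 scale. The cause of the changes below was not tested. Pathway genes called in PIK3CA mutants against WT numbered 4, but 2 with the replicate block, 11 in a fit of those genotypes alone and 2 to 4 with a sample left out (2 without WT replicate 1 or 3). In HER2 mutants against WT there were 7, but 3 in the fit of those genotypes alone and 4 to 8 with a sample left out (4 without WT replicate 3). In double mutants against WT there were 8, and 6 to 8 with a sample left out. Double against HER2 mutants gave 2, but 1 with limma, 1 with the block, 0 in the fit of those genotypes alone and 0 to 3 with a sample left out (0 without double mutant replicate 1 or 5, 1 without replicate 2, 3 or 4). Double against PIK3CA mutants gave 0, and 1 with DESeq2. HER2 against PIK3CA mutants gave 3, but 6 with DESeq2, 0 in the fit of those genotypes alone and 1 to 7 with a sample left out (1 without PIK3CA mutant replicate 1, 3 or 4, 7 without HER2 mutant replicate 1). The interaction gave 2, but 1 with the block and 0 to 2 with a sample left out (0 without WT replicate 3).

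Without WT replicate 2, the log2 fold change of St6gal1 against WT was 1.34 in PIK3CA, 2.56 in HER2 and 1.65 in double mutants, and that of its interaction -2.26. Cmah in limma was at 2.56 in HER2 mutants against WT and at 3.75 in double against HER2 mutants.

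Of all genes, 1096 were called in PIK3CA mutants against WT, but 1869 with DESeq2, 4136 in the fit of those genotypes alone and 396 to 1043 with a sample left out. For HER2 mutants against WT, 2518 became 1625 with the block, 541 in the fit of those genotypes alone and 733 to 2693 with a sample left out. For double mutants against WT, 2850 became 1173 to 2961 with a sample left out. Double against HER2 mutants gave 606, but 1715 with DESeq2, 118 with the block, 37 in the fit of those genotypes alone and 256 to 975 with a sample left out. Double against PIK3CA mutants gave 163, but 661, 19 and 364 under those settings and 17 to 143 with a sample left out. HER2 against PIK3CA mutants gave 1069, but 2219, 552 and 534, and 427 to 1166. The interaction gave 257, but 966 with DESeq2, 35 with the block and 54 to 382. The share of all calls that were higher was 33% in PIK3CA mutants against WT, and ran from 31.4% to 47.0% over the alternatives that kept every sample and from 19.1% to 35.7% with a sample left out. In the same order it was 41.1%, 30.2% to 55.6% and 37.1% to 56.8% in double against HER2 mutants, 46%, 21.1% to 50.5% and 28.6% to 50.0% in double against PIK3CA mutants, and 48.6%, 28.6% to 52.7% and 29.1% to 55.1% for the interaction. With a sample left out it ran from 34.4% to 48.1% around 45.8% in HER2 mutants against WT, from 31.4% to 45.2% around 42.8% in double mutants against WT and from 40.0% to 55.1% around 50.1% in HER2 against PIK3CA mutants.

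Samples share only replicate numbers: same-numbered HER2 and double mutant samples had a mean correlation of deviations of 0.157, over 0.1 in 3 of 4 pairs, and other genotype pairs had means of -0.0521 to 0.0425. Under the replicate block, where double mutant replicate 5 has no partner, the named calls that were lost were those of St3gal5 and Ctsa in PIK3CA mutants against WT, of St6gal2 and Siglec1 in HER2 mutants against WT, of Siae and Gfpt1 in double mutants against WT, of St6gal2, B4galt5, C1galt1 and Siglec1 between double and HER2 mutants, of St3gal1 between HER2 and PIK3CA mutants and of the St3gal5 interaction.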

Other observations

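HER2 mutant replicate 1 also stood apart in sialyltransferases of O-glycans that no comparison called. St6galnac2 was at 185 CPM there and at 13.5 to 21.3 CPM in the other HER2 mutants. St6galnac4 was at 206 CPM there and at 16.2 to 53.3 CPM in the other HER2 mutants. These genes are named because of their values. For St6galnac2, 2 overlapping identifiers carry the symbol, of which the longer was used.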
